A study of Mus musculus with 6 samples.

Results

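The 37 nuclear genes of the mitochondrial respiratory complexes II to V were examined in RNA sequencing of atria from old mice that carry or lack protein kinase C epsilon (PKC-epsilon). They are a fixed list of 4 genes of complex II, 9 of complex III, 9 of complex IV and 14 of complex V, plus cytochrome c (Cycs), and were matched by gene symbol among the 54838 genes counted. All 37 had counts, and all 37 passed the filter on low counts, as did 14708 genes in all. The libraries come from 3 mice labelled as PKC-epsilon knockout (KO) and 3 mice labelled wild type (WT), with 1 library of atrial tissue per mouse. The mice were old, with an average age of 20.9 months and a stated error of 0.43 months, and were of both sexes. The knockout is given as a JAX stock line and the wild type as C57BL/6J. The labels name no treatment of either group and do not say how many breeding lines or litters the mice came from.

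For 4 of the 6 libraries the labels contradict each other. The name of the library states one genotype, and the genotype field, together with the title and the mouse line, states another. Libraries are called here by the genotype in the library name and the replicate number of the title, as KO 1 to KO 3 and WT 1 to WT 3. By the genotype field, the KO libraries are KO 1, WT 2 and WT 3, and the WT libraries are WT 1, KO 2 and KO 3. Prkce, which encodes PKC-epsilon, was at 9.2, 5.15 and 28.6 CPM (counts scaled to library size after TMM normalisation) in the libraries labelled KO 1 to KO 3, and at 36.2, 11.7 and 30.2 CPM in those labelled WT 1 to WT 3. By library name, KO 3 and WT 2 went against their labels, and by genotype field KO 2 and WT 3 did. Both readings are therefore given, and every direction below is one between labels of which 2 in 6 go against the level of Prkce. Where no reading is named, a log2 fold change is by library name.

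Complex II, succinate dehydrogenase, feeds electrons from succinate to ubiquinone. Complex III passes them on to cytochrome c, complex IV hands them to oxygen, and complex V, the ATP synthase, uses the resulting proton gradient to make ATP. Complexes III, IV and V are built from subunits of both genomes: mitochondrial DNA encodes catalytic subunits of complexes III and IV and membrane subunits of complex V, whereas complex II is encoded in the nucleus alone. Heart muscle is among the tissues richest in all of them, and it uses muscle isoforms of a few complex IV subunits. In other mammalian systems many of these genes are known targets of nuclear respiratory factor 1 (NRF1), of GABP (nuclear respiratory factor 2) and of estrogen-related receptors (ERR) with their coactivator PGC-1 alpha.

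Promoters are shown for 3 members on which the comparisons below turn, chosen after their values were seen. Sdhd was the complex II gene with the smallest p by library name, Uqcrh the member with the smallest p by library name, and Uqcr11 the member with the smallest p by genotype field. Each line gives the 250 bases before the RefSeq start, from RefSeq's GRCm38.p6 table, read 5′ to 3′ on the gene's own strand, and the capitals mark a match to the GABP core CCGGAAG or its reverse complement.
Sdhd, chr9:50603850-50604099, minus strand: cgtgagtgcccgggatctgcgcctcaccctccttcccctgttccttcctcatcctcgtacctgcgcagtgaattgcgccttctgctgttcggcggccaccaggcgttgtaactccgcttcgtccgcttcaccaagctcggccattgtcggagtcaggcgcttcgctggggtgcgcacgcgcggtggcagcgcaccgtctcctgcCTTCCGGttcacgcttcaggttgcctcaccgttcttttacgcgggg
Uqcrh, chr4:116075071-116075320, minus strand: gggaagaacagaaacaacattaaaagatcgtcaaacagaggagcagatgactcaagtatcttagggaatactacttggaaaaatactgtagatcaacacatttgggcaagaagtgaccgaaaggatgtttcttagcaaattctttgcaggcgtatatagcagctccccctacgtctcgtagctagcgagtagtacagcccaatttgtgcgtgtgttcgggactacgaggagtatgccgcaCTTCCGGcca
Uqcr11, chr10:80406822-80407071, minus strand: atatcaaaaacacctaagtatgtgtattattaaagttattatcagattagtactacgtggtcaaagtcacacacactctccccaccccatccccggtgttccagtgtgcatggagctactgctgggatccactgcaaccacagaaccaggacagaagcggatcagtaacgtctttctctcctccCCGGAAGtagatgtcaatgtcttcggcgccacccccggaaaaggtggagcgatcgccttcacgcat
The matches lie 46 to 40 bases before the start in Sdhd, 10 to 4 bases before it in Uqcrh and 66 to 60 bases before it in Uqcr11. RefSeq windows, from 250 bases before to 50 after the start, were found for 30 of the 37 members. CCGGAAG occurred on either strand in 10 of the 30 (33.3%), against 12.9% of 17492 coding genes. The ERR core TCAAGGTCA occurred in 2 (Sdhd and Atp5g3, 6.7%), against 0.4%, and in Sdhd it lies within the 50 bases after the start. The NRF1 core GCATGCGC occurred in 6 of the 30, against 3.9% of all, among them Cycs, Sdhb, Uqcrc1 and Uqcr11. In Uqcr11 that match does not lie wholly within the 250 bases printed above. The YY1 core AAGATGGCG occurred in 2 (Atp5j and Atp5j2, 6.7%), against 2.1%. CCAAT occurred in 16 (53.3%), against 42.3%, and TATAAA in 2 (Atp5l and Cox8b, 6.7%), against 14.8%. These are matches of letters in a window, and the motifs do not contain each other.

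Total counts per library were 11574206 to 24138824, and 17.4% to 19.5% of them came from the mitochondrial genome. Of 12 listed atrial cardiomyocyte markers 10 were tested, and their summed level was 51156 to 61803 CPM. Myl7 (5247 to 6895 CPM) and Myl4 (6871 to 9495 CPM) were lowest in WT 1, Ryr2 (833 to 1423 CPM) and Kcnj3 (479 to 834 CPM) were highest there, and Bmp10 ran from 1886 CPM in WT 2 to 5545 CPM in KO 2. The other 2, Pln and Actc1, which have no part of their body free of other genes, were listed at 0. The counts have a gap where genes overlap. Among 1375 coding genes whose whole body lies under other genes, 98.0% had 0 counts in all libraries, against 19.4% of the 19494 with at least 50% of the body free. Among genes of these complexes that are no members, the main complex IV subunit gene Cox4i1 and the muscle isoform gene Cox6a2 were listed at 0 and have no free part. The library labelled WT 1 stood apart for the members themselves, as described below. Its library name, like that of KO 1, begins with Old, while the other names begin with a number. This division is called the library series below. The summed CPM of 4 Y-linked genes was 126, 84.1 and 78.9 in KO 1 to KO 3, and 1.08, 1.09 and 146 in WT 1 to WT 3, so 3 KO libraries and 1 WT library expressed them by library name. Sex and label are thus partly confounded by library name, as WT 1 and WT 2 are both labelled WT. By genotype field WT 1 and WT 2 fall in different groups. The part of sex in the members' values was not tested.

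The members were abundant transcripts. Together they held 32086, 32353 and 33851 CPM in the libraries labelled KO 1, KO 2 and KO 3, and 27107, 31200 and 32240 CPM in WT 1, WT 2 and WT 3. Only WT 1 lay outside the range of the other 5 by more than that range itself. Levels between genes are compared as CPM per kilobase of transcript. On that scale Atp5b, the catalytic beta subunit of ATP synthase, was highest with a mean of 2694 ± 236 over the 6 libraries (SD, n = 6), followed by Cox6c at 2102 ± 391 and Uqcrh at 1860 ± 330. Lowest were Sdhc at 137 ± 8.78, Cycs at 150 ± 12.9 and Atp5o at 179 ± 36.8. The order of neighbours such as Cox6c and Uqcrh is within their spread, while the 3 lowest do not reach the 3 highest in any library. The spread between libraries also differed by gene: the highest library exceeded the lowest 1.18-fold for Sdhc and 2.57-fold for Uqcr11.

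**Figure D1:**
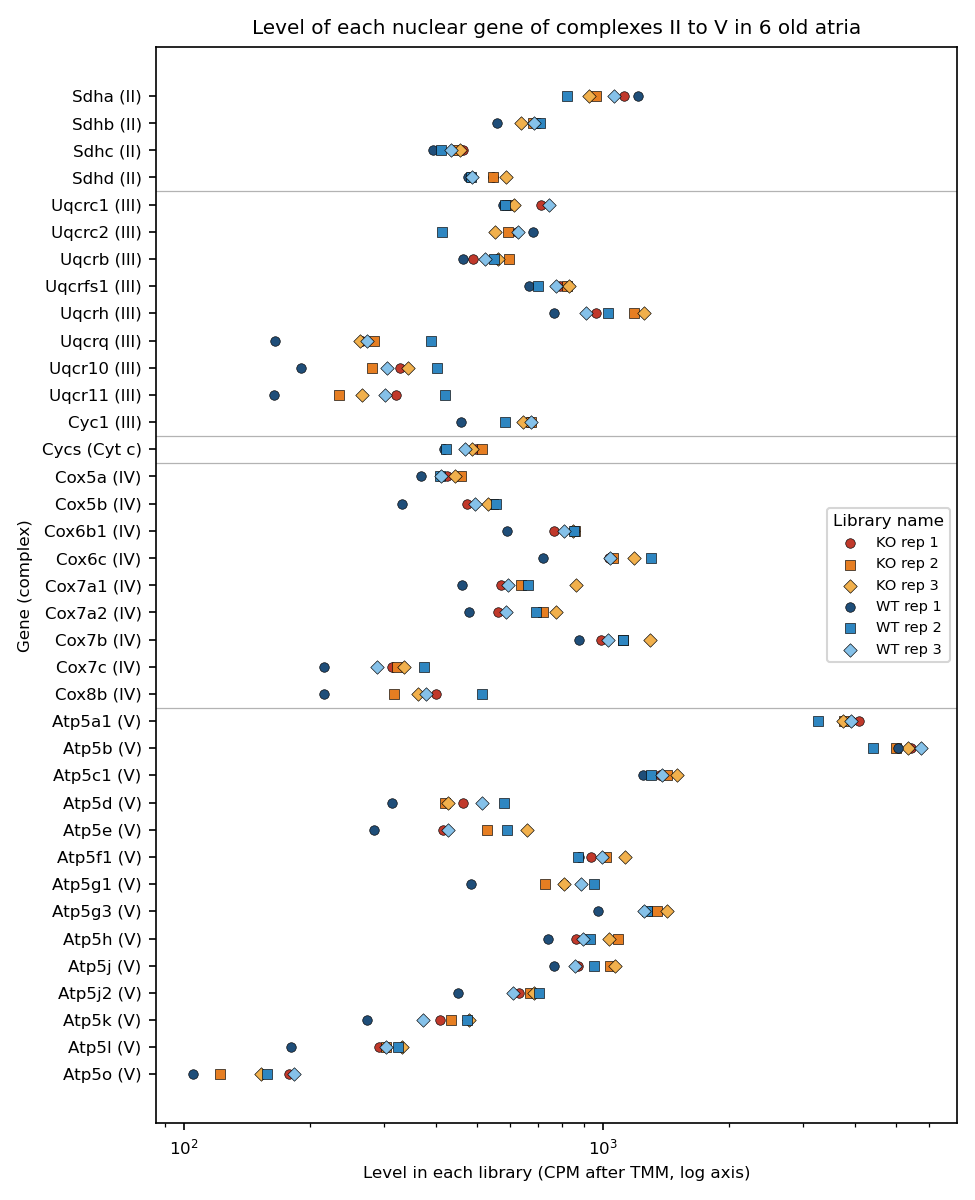
Level of each of the 37 genes in each library (CPM after TMM scaling, log axis), in groups by complex, with KO-labelled libraries in red to yellow and WT-labelled libraries in blue. The dark blue circle of WT rep 1 is the leftmost point for 32 of the 37 genes, and the spread is wide for short genes such as Uqcr11 (164 to 421 CPM) and narrow for Sdhc (393 to 465 CPM).

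By library name, no member passed the test between KO and WT. The background was the same, with 0.0% of the 14708 genes at an adjusted p under 0.05 in edgeR's quasi-likelihood test. At an unadjusted p under 0.05 there were 219 genes (1.49%, with 0.639% of all genes higher and 0.85% lower in KO) and 0 members, and DESeq2 and limma-voom likewise called 0 members. Yet 32 of the 37 members had a positive log2 fold change, KO over WT, against 45.5% of all genes tested, and their median was 0.15, against -0.02 over all genes. Other gene sets leaned the same way by library name: 30 of 35 complex I genes (median 0.12), 15 of 18 genes of the mitochondrial ribosome and of protein import (0.08) and 55 of 72 cytosolic ribosomal protein genes (0.16) were positive. By complex the median was 0.10 for complex II (3 of 4 positive), 0.09 for complex III (7 of 9), 0.16 for complex IV (8 of 9) and 0.16 for complex V (13 of 14). Of all members, 6 had all KO libraries above all WT libraries (Sdhc, Sdhd, Uqcrfs1, Cycs, Cox5a and Atp5g3), against 3.33% of all genes, and 0 had all of them below, against 2.62%. The members were not chosen by these values, but an earlier look at these data had already shown the lean of the respiratory genes, and their values are not independent of each other.

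The library labelled WT 1 carried much of this lean. Without WT 1, 23 of 37 members had a positive log2 fold change, against 50.1% of all genes in that fit, and the medians were 0.10 for complex II, 0.03 for complex III, -0.01 for complex IV, 0.07 for complex V and 0.07 for all members. Without WT 2 they were 0.14, 0.23, 0.32 and 0.24 for complexes II, III, IV and V, and 0.24 for all members, with 32 positive. Leaving out KO 3 brought the median over all members to 0.09. Without the 2 libraries at odds with Prkce, KO 3 and WT 2, 33 of 37 were positive with a median of 0.20, and no member was called. Because the tissue was measured in bulk, fewer cells of a type and less RNA per cell cannot be told apart in any of these values.

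**Figure D2:**
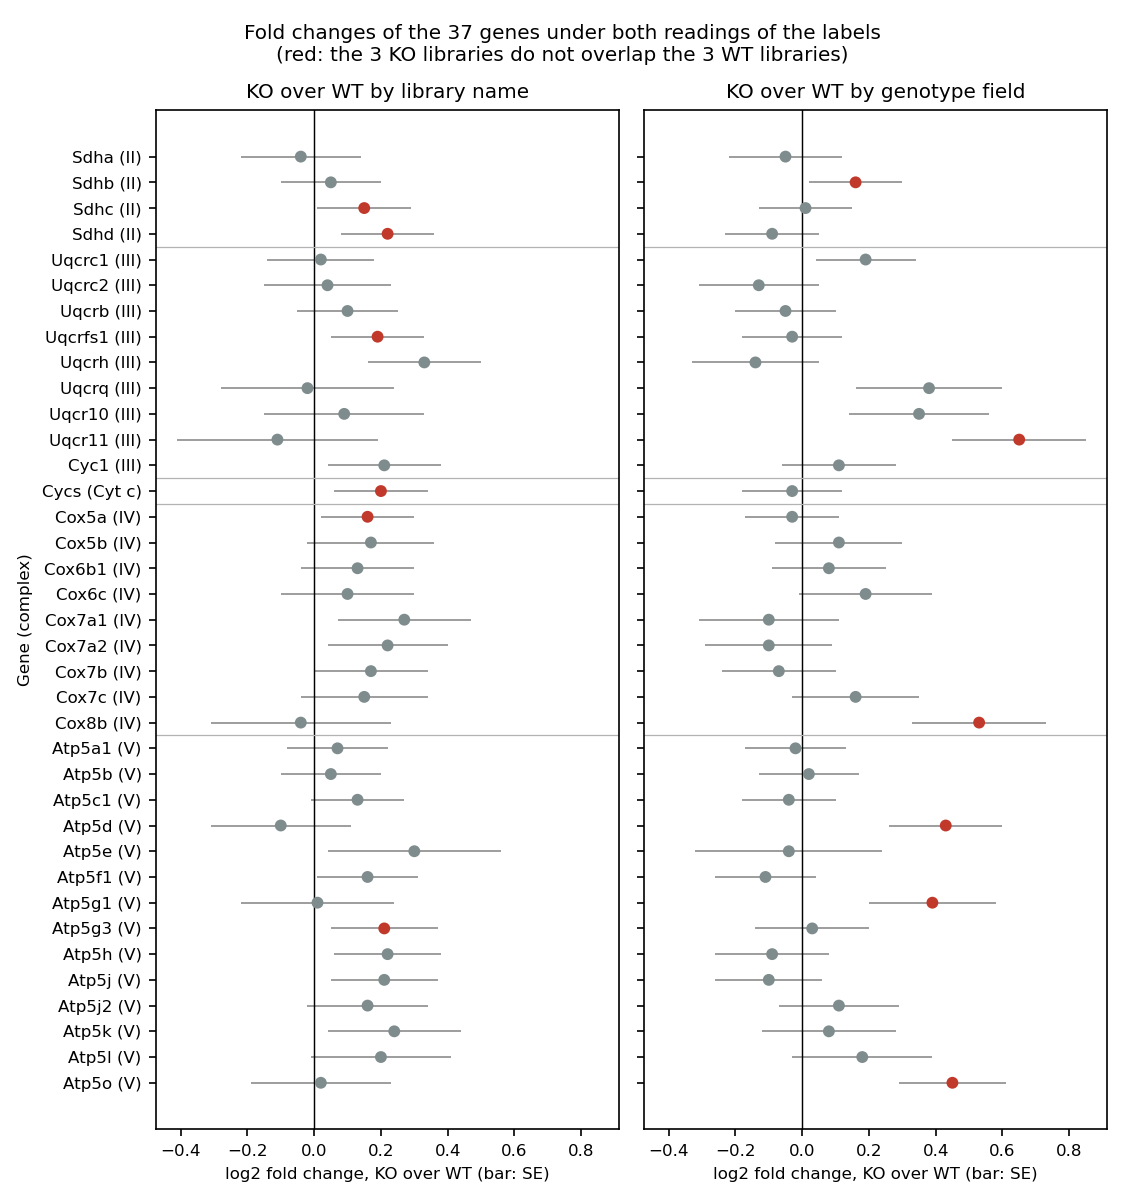
Log2 fold change of each gene, KO over WT, by library name on the left and by genotype field on the right, with bars of 1 SE and red points where the 3 KO and 3 WT libraries do not overlap. By library name 32 points lie right of 0 with no value above 0.33, and by genotype field the points split 20 to 17 with Uqcr11, Cox8b, Atp5o and Atp5d farthest to the right.

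In complex II, no gene passed the test, and the genes with the largest log2 fold change differed between the readings. By library name they were the membrane anchors Sdhd and Sdhc, and by genotype field the head subunit Sdhb. Sdhd (chromosome 9, 50596357 to 50603812) encodes one of the anchors that bind ubiquinone. It had 547, 546 and 588 CPM in KO 1, KO 2 and KO 3, against 478, 484 and 486 CPM in WT 1, WT 2 and WT 3. The groups did not overlap, and the WT libraries lay close to each other. The difference came to 0.22 on the log2 scale (SE 0.14), with an adjusted p = 0.99993 by edgeR, as for every other member by library name. Sdhc (chromosome 1, 171127165 to 171150603), the other anchor, had 465, 449 and 455 CPM in KO 1 to KO 3 and 393, 410 and 434 CPM in WT 1 to WT 3. These groups did not overlap either, with a log2 fold change of 0.15 (SE 0.14). By genotype field the groups of both genes overlapped, with values of -0.09 for Sdhd (SE 0.14) and 0.01 for Sdhc (SE 0.14).

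Sdha (chromosome 13, 74322254 to 74350280), the flavoprotein that oxidises succinate, had 1121, 965 and 927 CPM in KO 1 to KO 3 and 1214, 822 and 1065 CPM in WT 1 to WT 3. Both extremes were WT-labelled libraries, and the log2 fold change was -0.04 (SE 0.18). Sdhb (chromosome 4, 140961203 to 140979193), the iron-sulphur subunit, had 706, 681 and 638 CPM in KO 1 to KO 3 and 560, 707 and 684 CPM in WT 1 to WT 3. Here WT 1 alone was low, and the log2 fold change was 0.05 (SE 0.15) by library name and 0.16 (SE 0.14) by genotype field, where the groups did not overlap. Sdha was the one complex II gene, and one of 2 members in all, that was highest in WT 1. The other was Uqcrc2.

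In complex III, by library name, the Rieske protein and the hinge protein had the largest differences relative to their error. Uqcrh (chromosome 4, 116066965 to 116075071), the hinge protein between cytochrome c1 and cytochrome c, had 962, 1185 and 1253 CPM in KO 1 to KO 3 and 764, 1030 and 910 CPM in WT 1 to WT 3. KO 1 fell between the WT libraries, so the groups overlapped. The log2 fold change was 0.33 (SE 0.17), with the smallest p of the members by library name, and with the replicate number as a block Uqcrh was the 1 member with an unadjusted p under 0.05, against 2.19% of all genes. Uqcrfs1 (chromosome 13, 30540308 to 30545362), the Rieske iron-sulphur protein, had 792, 820 and 831 CPM in KO 1 to KO 3 and 668, 702 and 771 CPM in WT 1 to WT 3. Its groups did not overlap, with a log2 fold change of 0.19 (SE 0.14). By genotype field the groups of both genes overlapped, with values of -0.14 for Uqcrh (SE 0.19) and -0.03 for Uqcrfs1 (SE 0.15).

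Uqcr11 (chromosome 10, 80402997 to 80406830), a small supernumerary subunit, varied most of all members. It had 321, 235 and 267 CPM in KO 1 to KO 3 and 164, 421 and 302 CPM in WT 1 to WT 3. The lowest and the highest library were both WT-labelled, and the log2 fold change by library name was -0.11 (SE 0.30). The small subunits Uqcrq (165 to 389 CPM) and Uqcr10 (190 to 403 CPM) shared this order, with WT 1 lowest and WT 2 highest. The core proteins did not: Uqcrc1 was between 578 and 743 CPM, and Uqcrc2 was highest in WT 1 at 681 CPM and lowest in WT 2 at 413 CPM. As a result the ratio of Uqcr11 to Uqcrc2, per kilobase, was 2.19, 1.69 and 2.06 in KO 1 to KO 3, against 1.02, 4.34 and 2.05 in WT 1 to WT 3. Uqcrb had a log2 fold change of 0.10 (SE 0.15), and Cyc1, cytochrome c1, one of 0.21 (SE 0.17). By genotype field they were at -0.05 (SE 0.15) and 0.11 (SE 0.17).

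Cycs (chromosome 6, 50562563 to 50566538), the soluble carrier between complexes III and IV, had 499, 515 and 486 CPM in KO 1 to KO 3 and 418, 422 and 468 CPM in WT 1 to WT 3. The groups did not overlap, with a log2 fold change of 0.20 (SE 0.14). By genotype field they overlapped, with a value of -0.03 (SE 0.15). The gene has many processed copies: 28.5% of the 50-base words of its transcript also occur in transcripts of 76 other annotated genes, so its counts are uncertain.

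In complex IV, 8 of 9 members had a positive log2 fold change by library name (5 of 9 by genotype field), the largest for the muscle isoform gene Cox7a1. Cox7a1 (chromosome 7, 30184144 to 30186078) had 573, 639 and 861 CPM in KO 1 to KO 3 and 460, 663 and 595 CPM in WT 1 to WT 3. KO 3 stood above all others and WT 1 below, with a log2 fold change of 0.27 (SE 0.20). Cox7a2 (chromosome 9, 79755361 to 79759878), the isoform used in most tissues, had 561, 721 and 771 CPM in KO 1 to KO 3 and 479, 691 and 587 CPM in WT 1 to WT 3 (log2 fold change 0.22, SE 0.18). By genotype field the values were -0.10 for Cox7a1 (SE 0.21) and -0.10 for Cox7a2 (SE 0.19). The ratio of Cox7a1 to Cox7a2 per kilobase was 1.71, 1.49 and 1.87 in KO 1 to KO 3 and 1.61, 1.61 and 1.7 in WT 1 to WT 3. The difference in log2 ratio was 0.04 (exact permutation test, two-sided, p = 0.70, adjusted p = 0.933 over 12 tests, n = 3 each, smallest possible p 0.1).

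Cox7b (chromosome X, 106015700 to 106022450), with the highest mean CPM of the complex IV members, had 990, 1117 and 1299 CPM in KO 1 to KO 3 and 875, 1117 and 1026 CPM in WT 1 to WT 3 (log2 fold change 0.17, SE 0.17). By genotype field it was at -0.07 (SE 0.17). Cox8b (chromosome 7, 140898945 to 140900446), the isoform of heart and skeletal muscle, was the 1 member of the complex with a negative value by library name. It had 399, 318 and 362 CPM in KO 1 to KO 3 and 216, 514 and 379 CPM in WT 1 to WT 3, with a log2 fold change of -0.04 (SE 0.27), so that the WT libraries spanned all KO libraries. Over Cox8a, the isoform of most other tissues, it stood at 3.37, 1.97 and 2.71 per kilobase in KO 1 to KO 3 and at 2.63, 3.09 and 3.23 in WT 1 to WT 3. By library name the other members lay between 0.10 and 0.17: Cox5a, whose groups did not overlap (0.16), Cox5b (0.17), Cox6b1 (0.13), Cox6c (0.10) and Cox7c (0.15). By genotype field Cox5a was at -0.03, Cox5b at 0.11, Cox6b1 at 0.08, Cox6c at 0.19 and Cox7c at 0.16.

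In complex V, the spread across libraries differed between subunits, within the F1 head as well. Atp5b (chromosome 10, 128083273 to 128090391) had 5428, 5004 and 5338 CPM in KO 1 to KO 3 and 5051, 4414 and 5731 CPM in WT 1 to WT 3, with a log2 fold change of 0.05 (SE 0.15). Its partner Atp5a1, the alpha subunit, had means of 3870 ± 191 CPM in KO and 3695 ± 378 CPM in WT (SD, n = 3 each; log2 fold change 0.07, SE 0.15), and Atp5c1, the gamma subunit, 1431 ± 65.5 CPM in KO and 1311 ± 70.8 CPM in WT. The highest library exceeded the lowest 1.30-fold for Atp5b, 1.26-fold for Atp5a1 and 1.20-fold for Atp5c1. For the other F1 subunits that ratio was 1.85 for Atp5d and 2.30 for Atp5e, and in the remaining members of the complex it ran from 1.29 for Atp5f1 to 1.97 for Atp5g1.

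Atp5g1 and Atp5g3 encode the same mature c subunit of the rotor ring. Atp5g3 (chromosome 2, 73908447 to 73911326) had 1298, 1343 and 1423 CPM in KO 1 to KO 3 and 976, 1276 and 1252 CPM in WT 1 to WT 3. Its groups did not overlap, though KO 1 exceeded WT 2 by little, and the log2 fold change was 0.21 (SE 0.16). Atp5g1 (chromosome 11, 96068852 to 96075670) had 807, 727 and 807 CPM in KO 1 to KO 3 and 484, 952 and 887 CPM in WT 1 to WT 3, a log2 fold change of 0.01 (SE 0.23). Processed copies share 66.0% of its 50-base words. By genotype field the groups of Atp5g3 overlapped, at 0.03 (SE 0.17), and those of Atp5g1 did not, at 0.39 (SE 0.19). The ratio of Atp5g1 to Atp5g3 per kilobase was 0.745, 0.648 and 0.680 in KO 1 to KO 3 and 0.594, 0.893 and 0.849 in WT 1 to WT 3.

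Of the peripheral stalk, Atp5j (chromosome 16, 84827866 to 84835625), coupling factor 6, had 872, 1041 and 1071 CPM in KO 1 to KO 3 and 764, 953 and 857 CPM in WT 1 to WT 3 (log2 fold change 0.21, SE 0.16). WT 2 lay above KO 1, and by genotype field the log2 fold change was -0.10 (SE 0.16). Atp5o (chromosome 16, 91925214 to 91931687), the oligomycin sensitivity conferring protein, had 178, 122 and 153 CPM in KO 1 to KO 3 and 105, 158 and 183 CPM in WT 1 to WT 3, a log2 fold change of 0.02 (SE 0.21). For Atp5o 40.2% of the gene body is free of other genes, so an unknown part of its reads was counted. The stalk subunits Atp5f1 and Atp5h had log2 fold changes of 0.16 (SE 0.15) and 0.22 (SE 0.16), and the membrane subunit Atp5j2 one of 0.16 (SE 0.18). The small membrane subunits Atp5k and Atp5l were at 0.24 (SE 0.20) and 0.20 (SE 0.21), and Atp5e, the F1 epsilon subunit, at 0.30 (SE 0.26). Of the members of complex V, Atp5d, the F1 delta subunit, alone was negative by library name, at -0.10 (SE 0.21). By genotype field Atp5f1, Atp5h and Atp5e were at -0.11, -0.09 and -0.04, and Atp5j2, Atp5k and Atp5l at 0.11, 0.08 and 0.18. For 12 members more than 20% of the 50-base words also occur in other genes, most in Atp5l (84.8%), Atp5g1, Cox7c (53.0%), Atp5h (50.5%) and Atp5o (50.3%).

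By genotype field, the picture across complexes was another. Again no member passed the test, against 0.0136% of all genes, which are 2 genes: Myl2 and Gm26917, the second a predicted gene, both named here after their values were seen. With the replicate number as a block 51 genes passed, with no member among them, and DESeq2 and limma-voom also called 0 members. Of the members, 20 of 37 had a positive log2 fold change, against 48.1% of all genes, with a median of 0.02, against -0.01. The medians were -0.02 for complex II, 0.11 for complex III, 0.08 for complex IV and 0.02 for complex V. At an unadjusted p under 0.05 there were 4 members, all higher in KO, against 5.69% of all genes in either direction, made up of 4.34% that were higher and 1.35% that were lower in KO. With the replicate number as a block the count was 7, against 9.33% of all genes in either direction. For 6 members all KO libraries lay above all WT libraries (Sdhb, Uqcr11, Cox8b, Atp5d, Atp5g1 and Atp5o), against 7.48% of all genes, and for 0 below, against 4.49%. Without WT 1, 11 of 37 were positive.

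The 4 members were Uqcr11, Cox8b, Atp5d and Atp5o. Uqcr11 had 321, 421 and 302 CPM in the KO libraries by field (KO 1, WT 2 and WT 3), against 164, 235 and 267 CPM in the WT libraries by field (WT 1, KO 2 and KO 3). The groups did not overlap, with a difference of 0.65 on the log2 scale (SE 0.20, adjusted p = 0.780 by edgeR), and it stayed between 0.47 and 0.81 with any 1 library left out. Cox8b had 399, 514 and 379 CPM in KO by field and 216, 318 and 362 CPM in WT by field (log2 fold change 0.53, SE 0.20, adjusted p = 0.868 by edgeR). Atp5o had 178, 158 and 183 CPM in KO by field and 105, 122 and 153 CPM in WT by field (log2 fold change 0.45, SE 0.16, adjusted p = 0.815 by edgeR). Atp5d had 465, 581 and 516 CPM in KO by field and 314, 420 and 427 CPM in WT by field (log2 fold change 0.43, SE 0.17, adjusted p = 0.868 by edgeR). In each case WT 1 was the lowest library. For the isoform ratios, those of Cox8b to Cox8a and of Atp5g1 to Atp5g3 did not overlap between the groups by field, with differences of 0.42 and 0.37 in mean log2 ratio (exact permutation test, two-sided, p = 0.10 and adjusted p = 0.60 for both, n = 3 each, where 0.1 is the smallest p possible).

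Of the ventricular markers, Myl2, Myl3 and Irx4 separated the same libraries, while Myh7, Kcnj2 and Hand1 did not. Myl2, the ventricular regulatory light chain, had 251, 357 and 174 CPM in KO by field and 32.6, 25.7 and 33.4 CPM in WT by field (log2 fold change 3.09, SE 0.25, adjusted p = 0.00386 by edgeR). Of 6 listed ventricular markers 4 were tested, and by field Myl2 passed the test. Myl3 had 165, 189 and 125 CPM in KO by field and 77.2, 76.1 and 54.4 CPM in WT by field (log2 fold change 1.20, SE 0.19, adjusted p = 0.213 by edgeR). Kcnj2 was at 0.03 (SE 0.21) and Myh7, at 119, 150 and 139 CPM in KO by field and 176, 47.4 and 280 CPM in WT by field, at -0.30 (SE 0.59). The summed level of the listed markers was 568, 730 and 470 CPM in KO by field and 327, 171 and 399 CPM in WT by field. Without Myl2 the sums, which include Myh7, overlapped, at 317, 373 and 296 CPM in KO by field and 295, 146 and 365 CPM in WT by field. Irx4, too low to be tested, had 0.568, 0.926 and 0.482 CPM in KO by field and 0, 0.0725 and 0.0489 CPM in WT by field. Hand1 was at or below 0.114 CPM in every library. The part of ventricular tissue in the members' values was not tested. By library name the sums over all 6 were 568, 171 and 399 CPM in KO 1 to KO 3 and 327, 730 and 470 CPM in WT 1 to WT 3, so they did not separate the labels.

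Across the members, the deviation of a library from the mean of all 6 was ordered by the length of the coding sequence, most clearly in WT 1 and WT 2. In the library labelled WT 1, 32 of 37 members were at their lowest, while 25.1% of all genes tested were lowest there. Of 8 macrophage markers 7 were also lowest there, with a median of -0.45 (-0.25 in the fit with offsets given below) and a summed level of 894, 1118 and 1031 CPM in KO 1 to KO 3 and 738, 1134 and 1067 CPM in WT 1 to WT 3, and their part in the members' values was not tested. The median deviation of the members in WT 1 was -0.39 on the log2 scale, against 0.01 over all genes in that library, and it was -0.13 for complex II, -0.39 for complex III, -0.43 for complex IV and -0.41 for complex V. In the other libraries the median over all members was 0.05, 0.07 and 0.12 in KO 1 to KO 3, and 0.07 and 0.02 in WT 2 and WT 3. The 19 members with a coding length of 156 to 387 bases had a median of -0.49 in WT 1 and 0.19 in WT 2. The 18 members of 408 to 1992 bases had a median of -0.16 in WT 1 and -0.08 in WT 2.

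Spearman's correlation between a member's deviation and its coding length was 0.36, -0.17 and -0.53 in KO 1 to KO 3 and 0.77, -0.79 and 0.47 in WT 1 to WT 3 (across 37 genes of the same libraries, a description with no test). Over all 12985 tested coding genes it was 0.11, -0.29 and -0.09 in KO 1 to KO 3 and 0.29, -0.19 and 0.10 in WT 1 to WT 3, of the same sign in every library and weaker, except in KO 2, where it was stronger. GC content was correlated with the deviation as well. Across the members this correlation was 0.20, -0.28 and -0.17 in KO 1 to KO 3 and -0.47, 0.46 and 0.30 in WT 1 to WT 3. Its sign was opposite to that of coding length in WT 1 and WT 2, and in KO 2 it was the larger in size. Over all tested coding genes it was 0.27, -0.14 and -0.15 in KO 1 to KO 3 and -0.35, 0.40 and 0.11 in WT 1 to WT 3. There it was larger in size than that of coding length except in KO 2. The longest member, Sdha, was above its mean by 0.26 in WT 1 and deviated by -0.30 in WT 2, while Uqcr11, with a coding length of 168 bases, deviated by -0.74 and 0.62 there. Other genes showed the order by length too. Among all tested coding genes with transcripts under 700 bases (n = 284) the median deviation was -0.44 in WT 1 and 0.28 in WT 2, and with transcripts of 3000 bases or more (n = 6188) it was 0.13 and -0.07. Among cytosolic ribosomal protein genes, which are also short, 66 of 72 were lowest in WT 1, with a median of -0.47. For the 35 tested complex I genes the median in WT 1 was -0.39.

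**Figure D3:**
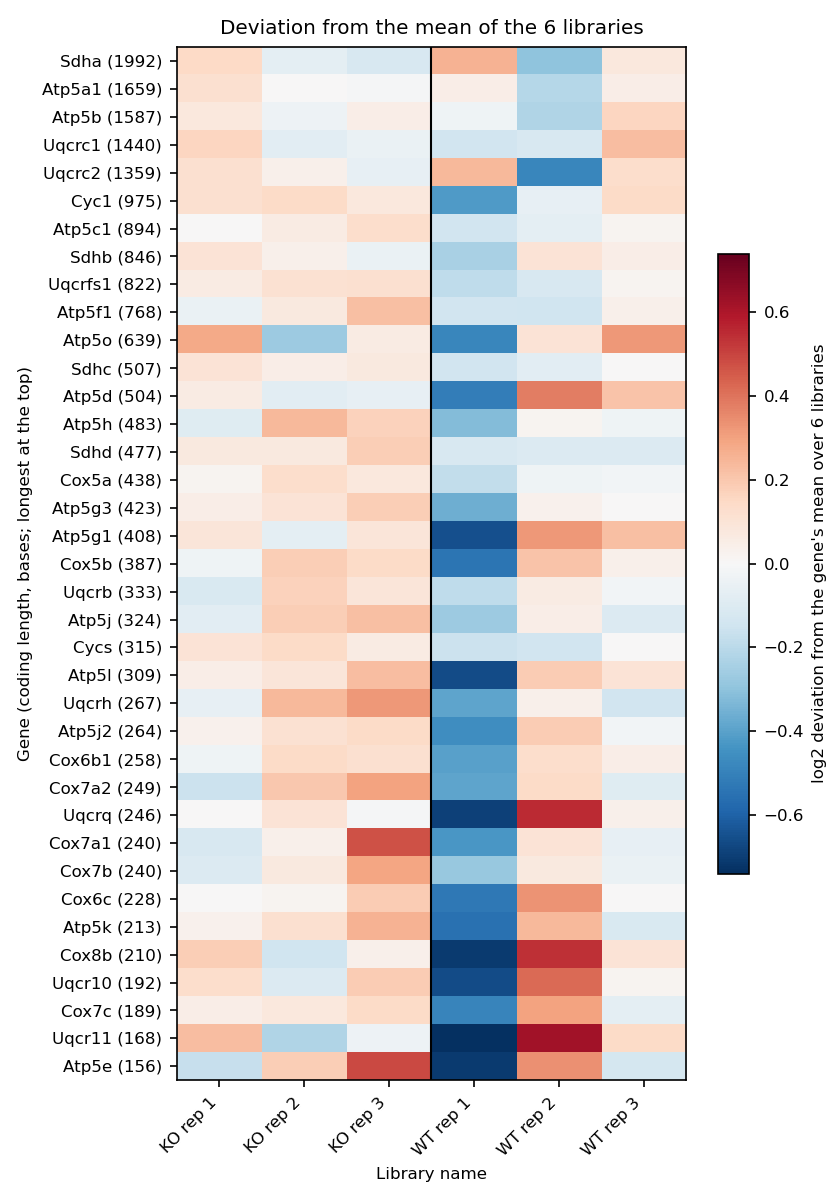
Log2 deviation of each gene from its mean over the 6 libraries, with genes ordered by coding length from 1992 bases (Sdha, top) to 156 bases (Atp5e, bottom), KO libraries left of the line and WT libraries right of it. The WT rep 1 column turns from red to dark blue down the page, and the WT rep 2 column from blue to red.

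**Figure D4:**
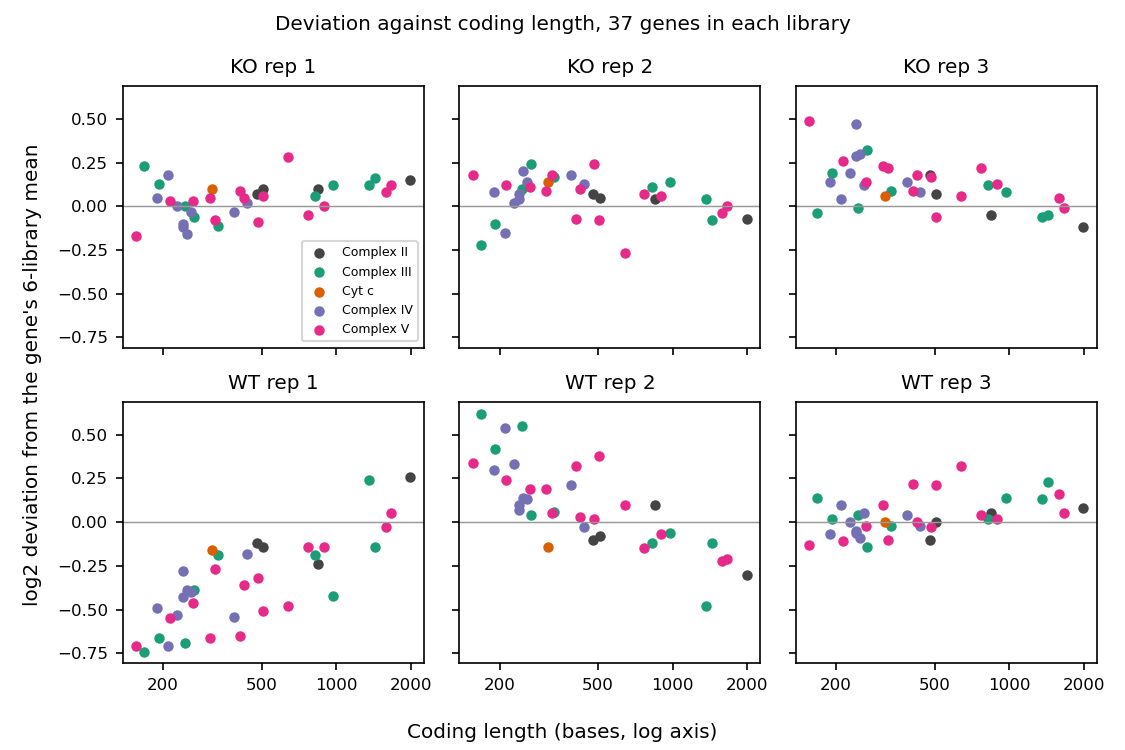
The same log2 deviations against coding length (log axis), 1 panel per library and 1 point per gene, coloured by complex. The points rise with length in WT rep 1 (Spearman 0.77) and fall in WT rep 2 (-0.79), and genes of each complex lie along the same slope.

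An added fit, chosen after these values were seen, removed from each library its own trend on transcript length and GC content, estimated over all tested coding genes, the members included. In it the median deviation of the members in WT 1 was -0.06, and by complex it was 0.02, -0.06, -0.08 and -0.06 for complexes II, III, IV and V. The lowest median over all members was then that of WT 2, at -0.11, against 0.07 there without the offsets. By complex it was -0.14, -0.16, 0.06 and -0.15 in WT 2 for complexes II, III, IV and V. Cycs, at -0.36, then lay farther below its mean in WT 1 than without the offsets (-0.16). The lean by library name narrowed to 28 of 37 members positive, against 50.9% of all genes, with medians of 0.07, 0.02, 0.02 and 0.08 for complexes II to V and 0.06 over all members. There the log2 fold change was 0.13 for Sdhd, 0.19 for Uqcrh and 0.20 for Cycs. By library name 0 members had an unadjusted p under 0.05, against 2.03% of all genes. By genotype field 5 members had an unadjusted p under 0.05, against 2.88% of all genes: Uqcr11 (0.30), Cox8b (0.26) and Atp5o (0.35) were higher in KO, and Cox7a1 (-0.30) and Atp5j (-0.28) were lower. No member passed the adjusted threshold in this fit either. The part of RNA integrity and fragment size in the gradient was not tested.

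**Figure D5:**
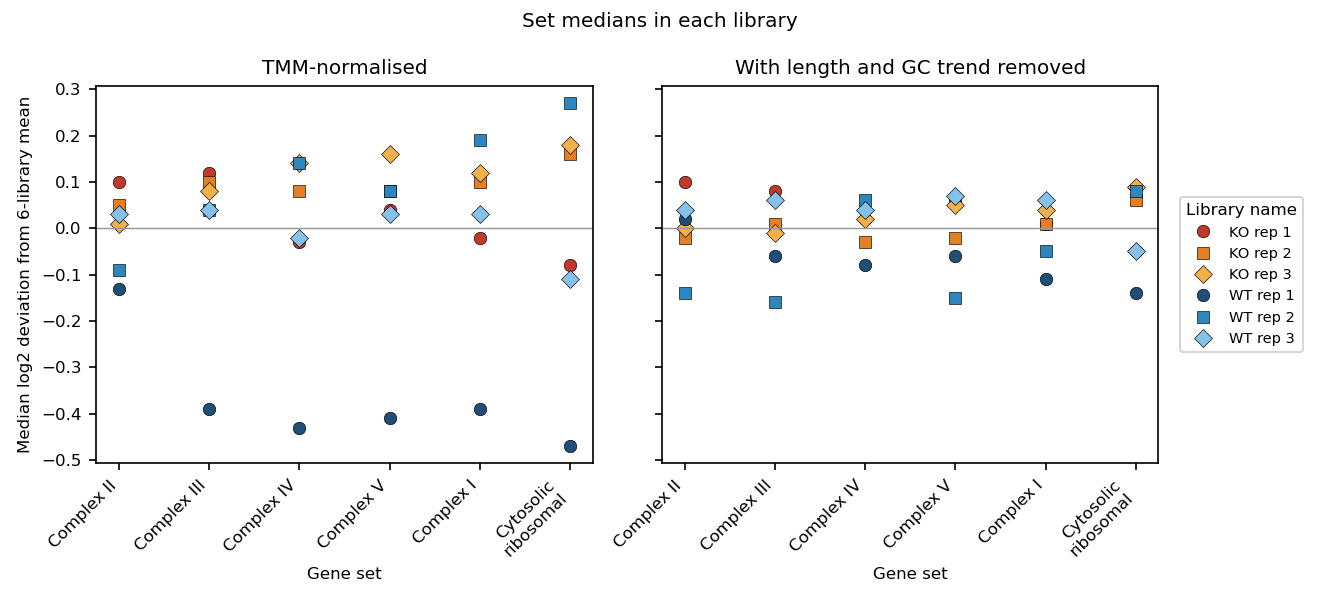
Median log2 deviation of the genes of complexes II to V, complex I and the cytosolic ribosome in each library, with TMM scaling alone on the left and after removal of the length and GC trend on the right. On the left WT rep 1 lies at -0.39 to -0.47 for 5 of the 6 sets and at -0.13 for complex II, and on the right all points lie between -0.16 and 0.10.

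Of the 6 genes of the mitochondrial genome that belong to these complexes, 2 were far above the nuclear members, with means per kilobase of 33403 for mt-Cytb and 37640 for mt-Co1. mt-Cytb, the catalytic cytochrome b of complex III, had 37119, 41372 and 38438 CPM in KO 1 to KO 3 and 36004, 38893 and 37455 CPM in WT 1 to WT 3. Its ratio to the summed nuclear members of complex III, in CPM with no scaling by length, was 7.20, 7.85 and 7.21 in KO 1 to KO 3 and 8.71, 7.66 and 7.30 in WT 1 to WT 3. For mt-Co1, the catalytic subunit of complex IV, 51.1% of the 50-base words also occur in annotated nuclear copies, so its level is uncertain. Its ratio to the summed nuclear members of complex IV was 10.2, 10.3 and 9.11 in KO 1 to KO 3 and 14.6, 7.17 and 10.9 in WT 1 to WT 3. The difference in mean log2 ratio, KO minus WT, was -0.09 by library name and -0.10 by genotype field for mt-Cytb. For mt-Co1 it was -0.08 by library name and -0.26 by genotype field. In exact permutation tests (two-sided, 12 in all) the adjusted p was 0.96 for mt-Co1 by library name and 0.857 for the others. With 3 libraries a group the smallest p possible was 0.1, so these tests could not have reached 0.05. The other 4 such genes were low, with mt-Co2 at 88.8 to 182 CPM, mt-Co3 at 58.0 to 290 CPM, mt-Atp6 at 36.9 to 90.3 CPM and mt-Atp8 at 2.52 to 11.6 CPM, each highest in WT 3. For mt-Co2, mt-Co3 and mt-Atp6 at least 99.5% of the 50-base words also occur in annotated nuclear copies, so their levels are uncertain and no ratio is given for them.

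Genes that assemble or regulate the complexes gave no call either. Of 38 listed assembly factors 34 were tested, and 25 had a positive log2 fold change by library name (median 0.10), against 45.5% of all genes. By genotype field 13 were positive (median -0.04), against 48.1% of all genes. By library name the smallest p was that of Sdhaf1, which inserts iron-sulphur clusters into Sdhb, at 21.8, 26.5 and 23.5 CPM in KO 1 to KO 3 and 13.3, 20.6 and 14.0 CPM in WT 1 to WT 3 (log2 fold change 0.59, SE 0.20, adjusted p = 0.99993 by edgeR). Only 30.4% of the Sdhaf1 gene body is free of other genes, and 69.0% of its words also occur in an overlapping gene. Next came Higd1a (0.30, SE 0.15) and Bcs1l, which inserts the Rieske protein into complex III (0.32, SE 0.16). By genotype field Higd1a was at -0.10 (SE 0.16) and Bcs1l at -0.09 (SE 0.17). Of 15 other subunit genes 10 were tested and 7 were positive by library name (6 by genotype field). Among them were Usmg5 (0.29, SE 0.19) and Atp5mpl (0.29, SE 0.20), small subunits of ATP synthase, while the testis-type isoform gene Cox6b2 was at -0.74 (SE 0.42). Cox6b2 was low, at 1.09 to 4.12 CPM. By genotype field Cox6b2 was at 0.61 (SE 0.43) and Atp5mpl at -0.10 (SE 0.21).

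Of 16 regulators, 5 were positive and 11 negative by library name (median -0.10), and 7 were positive by genotype field (median -0.04). Ppargc1a, which encodes the coactivator PGC-1 alpha, had 53.3, 40.5 and 63.9 CPM in KO 1 to KO 3, against 95.4, 56.0 and 84.8 CPM in WT 1 to WT 3. KO 3 lay above WT 2, and the difference was -0.58 on the log2 scale (SE 0.22, adjusted p = 0.99993 by edgeR). Esrrg was at -0.34 (SE 0.21) and Tfam, which packages mitochondrial DNA, at 0.19 (SE 0.15). By genotype field Ppargc1a was at -0.04 (SE 0.30), Esrrg at -0.13 (SE 0.23) and Tfam at -0.17 (SE 0.14). By genotype field, Esrra, the estrogen-related receptor alpha, had 86.4, 96.0 and 98.4 CPM in KO by field and 53.9, 48.7 and 71.8 CPM in WT by field (log2 fold change 0.69, SE 0.16, adjusted p = 0.595 by edgeR). Polrmt, the mitochondrial RNA polymerase, had 20.1, 18.3 and 13.9 CPM in KO by field and 11.5, 8.56 and 12.2 CPM in WT by field (0.69, SE 0.21, adjusted p = 0.780 by edgeR). By library name Esrra was at -0.26 (SE 0.26) and Polrmt at -0.09 (SE 0.30). With the length and GC offsets the log2 fold change by genotype field was 0.33 for Esrra and 0.36 for Polrmt. Esrra and Polrmt are named here after their values were seen.

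Markers of fat, which expresses Cox7a1 and Cox8b when it is brown, differed between libraries. Ucp1, the defining brown fat gene, was at 57.4 CPM in KO 2 and between 0 and 3.54 CPM in the other 5 libraries. Of 7 listed brown fat markers 4 were tested, and 3 of them (Ucp1, Cidea and Dio2) were highest in KO 2. Ppargc1a, also on that list, was lowest there, at 40.5 CPM. Elovl3 and Otop1, too low to be tested, were highest in KO 2 as well, at 3.34 and 1.6 CPM. The 8 white fat markers had a median deviation of -0.99, 1.09 and 0.47 in KO 1 to KO 3 and of -1.30, 0.64 and -0.16 in WT 1 to WT 3, and their summed level was 497, 919 and 721 CPM in KO 1 to KO 3 and 517, 801 and 606 CPM in WT 1 to WT 3. In KO 2, Cox7a1 deviated from its mean by 0.04 and Cox8b by -0.15. Without KO 2, the medians by library name were 0.10, 0.06, 0.13 and 0.16 for complexes II to V. The skeletal muscle markers summed to 14.4 to 22.7 CPM in all libraries. The part of fat in the members' values was not tested.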

How the data were processed

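Atrial RNA of 6 mice was sequenced, with libraries made from 1 µg of total RNA by the TruSeq RNA Library Prep Kit v2, per the labels' protocols. The authors deposited a table of raw counts per Ensembl gene. The submitters' processing notes name HISAT2 2.1.0, featureCounts 1.5.0-p3 and the build GRCm38, with the strand setting and annotation release of the counting step not given in the sources used here. Since the kit does not mark strand, antisense reads cannot be told from those of a gene.

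Symbols, positions and transcript lengths came from GENCODE M21 (GRCm38), which named 54723 of 54838 identifiers. Of 2 identifiers named Atp5o, the read-through model was left out. Genes were tested with edgeR's quasi-likelihood test (edgeR 4.0.16, R 4.3.3, TMM, filterByExpr), two-sided, with Benjamini-Hochberg adjustment over all genes and a threshold of 0.05. A standard error (SE) was derived as the size of the log2 fold change divided by the root of its F statistic. The alternatives limma-voom (limma 3.58.1) and DESeq2 1.42.0, like edgeR, were checked on simulated data. CPM, deviations (log2 CPM with a prior count of 2, minus the gene's mean) and ratios were computed here. All pairs of libraries differed by more than sampling noise. The labels call the mice biological replicates.

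For the block, libraries with the same replicate number in the title were taken as pairs. Deviations from the group means correlated within these pairs at 0.157, 0.162 and 0.121 by library name and at 0.269, 0.227 and 0.121 by genotype field. Libraries with different numbers were not compared, so these values cannot show whether the number pairs the libraries. The main comparison used no block, and the fit with the block was an alternative.

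The members and the gene lists were chosen with earlier results of these data known. Values in every library are given for, in each complex, the member with the highest mean CPM, the 2 with the smallest p by library name and the 1 with the smallest p by genotype field, and for Cycs and the isoform pairs. Of each other list up to 3 members with the smallest p by library name are named.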

Additional observations from a re-analysis of the deposited data

How the results depend on the processing

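No member passed the adjusted threshold by either reading under any of the 15 other settings, and the medians by complex moved by less than the spread between libraries in all of them. The count of genes called by library name was 0, but 1 without the low-count filter, 6 without the 2 libraries at odds with Prkce, and 0 to 4 with 1 library left out (2 without WT 1, 4 without WT 3). By genotype field it was 2, but 19 with DESeq2, 1 with limma-voom, 25 without the low-count filter, 51 with the replicate block, 7 with the library series as a covariate, and 0 to 2 with 1 library left out (0 without KO 3 or WT 1). The replicate block changed no other call. By genotype field, 11 to 27 members were higher in KO with 1 library left out, the 11 without WT 1. The cause of these moves was not tested.

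Of 510 alternative values for the 17 members given in full, 467 kept their sign and 43 reversed, none of them called. With the length and GC offsets the log2 fold change by genotype field was 0.02 for Sdha, 0.01 for Uqcrfs1, 0.12 for Cycs and 0.05 for Cox7b, and by library name -0.03 for Atp5g1 and -0.05 for Atp5o. Without the 2 libraries at odds with Prkce it was 0.25 for Uqcr11, 0.27 for Cox8b and -0.05 for Atp5b by library name, and 0.02 for Cycs and -0.09 for Atp5b by genotype field. Cox8b by library name was at 0.04 with limma-voom, 0.04 with the replicate block and 0.03 with the library series. With 1 library left out, values by library name ran from -0.18 to 0.09 (Sdha), -0.04 to 0.12 (Sdhb), -0.40 to 0.24 (Uqcr11), -0.31 to 0.28 (Cox8b), -0.03 to 0.15 (Atp5b), -0.24 to 0.19 (Atp5g1) and -0.18 to 0.20 (Atp5o). By genotype field they ran from -0.13 to 0.08 (Sdha), -0.06 to 0.05 (Sdhc), -0.14 to 0.02 (Uqcrfs1), -0.12 to 0.03 (Cycs), -0.30 to 0.15 (Cox7a1), -0.29 to 0.03 (Cox7a2), -0.22 to 0.07 (Cox7b), -0.06 to 0.11 (Atp5b) and -0.12 to 0.14 (Atp5g3).

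With 3 libraries a group whose labels conflict, differences of the size seen here, under 0.7 on the log2 scale, could not be told from the spread between mice. The part of depth in this was not tested, and the lowest level of a member was 105 CPM, for Atp5o in WT 1.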
